A study of Mus musculus with 147 samples.

Results

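The 9 genes described here act in the retinoic acid pathway: the receptors Rara, Rarb and Rarg, the binding proteins Crabp1 and Crabp2, the synthesizing enzymes Aldh1a1 and Aldh1a2, the degrading enzyme Cyp26b1 and the response gene Stra8. They were listed by name, with earlier results of these data known, among the 31053 genes of a table of unique molecular identifiers (UMIs, each a tag of 1 captured RNA molecule) counted at the 3' end of transcripts in single mouse cells. The study followed male germ cells, with gonadal somatic cells beside them, from the embryo to the adult testis. Wild-type animals were offspring of C57BL/6 females and males that carry the Blimp1-mVenus and Stella-ECFP reporters, transgenes that light up germ cells. The 9840 wild-type cells from E10.5 (embryonic day) to the adult were used, at 24 time-points that include postnatal days (PND) 0 to 35.

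Fetal germ cells were sorted on the reporters, and somatic cells of the fetal gonad came from the fraction without reporter. E10.5 and E11.5 embryos were typed as male by the study, although 192 of the E10.5 cells carried no sex in its table of cells. After birth cells were picked by germ cell morphology, so that postnatal somatic cells were incidental. At PND30 cells were also sorted by DNA content as 1N, 2N and 4N, beside unsorted cells in replicate 2. At PND14 replicate 1 held 2N and 4N sorted cells and replicate 2 held 2N sorted and unsorted cells, so that these pools differ in sort. Cell names carry 2N in all pools from E10.5 to PND7, and no DNA content at PND8, PND10, PND12, PND35 and in the adult. The step from PND6-PND7 to PND10-PND14 thus also changes this label, as does adding PND8 to PND6-PND7. Gonads of E13.5 to E16.5 were cut in 3, labelled P, C and D for proximal, central and distal. A pool is 1 replicate of 1 time-point. The study calls its replicates independent and lists several embryos or gonads behind a fetal pool and a single testis behind a postnatal one, so that p-values measure the spread between such pools.

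Of 9591 cells that passed the study's cell filter, 8173 fell in clusters that carry germ cell markers, 546 were Sertoli-like and 648 interstitial-like. The remaining cells were Leydig-like, but for 80 that stayed unnamed. The class names go against the markers in 3 pools. At E16.5 replicate 2, 47 of 48 somatic cells fell in a cluster led by Leydig genes. Their summed interstitial markers (10 genes, 3913 CPM) and Sertoli markers (11 genes, 1947 CPM) were above the Leydig markers (5 genes, 1270 CPM). The lists differ in length, and these sums do not correct for it. This pool is not called Leydig-like below and has no Sertoli-like or interstitial-like sum. In the interstitial-like sums of E11.5 the Sertoli markers (1948 and 1737 CPM) were above the interstitial markers (498 and 809 CPM). Levels are given as a gene's UMIs among 1000000 UMIs of the summed cells (CPM). Germ cells gave 49 sums of 26 to 571 cells and 11406736 to 197478836 UMIs, Sertoli-like cells 20 sums and interstitial-like cells 25 sums, each over at least 10 cells. Germ cell markers were detected in the somatic sums and Sertoli markers in the germ sums: within the 20 pools that hold both, the summed level of 11 Sertoli markers in germ cells was 1.8% to 19.5% of that in Sertoli-like cells (median 8.03%), and that of 8 germ markers in Sertoli-like cells was 1.39% to 32.5% of that in germ cells (median 15.4%). Fewer transcripts per cell and fewer expressing cells cannot be told apart in such sums.

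Retinoic acid is made from retinal by ALDH1A enzymes, held in the cytoplasm by CRABP proteins and removed by CYP26 enzymes, and it acts through RAR receptors that bind DNA with RXR partners. In the testis it is known for driving spermatogonial differentiation and meiotic entry, with Stra8 as its best known response gene. In the fetal testis CYP26B1 is known for keeping germ cells from retinoic acid.

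RAR and RXR pairs bind 2 half-sites in a row, such as a DR5, in which 5 bases part them. RefSeq promoter windows of 300 bases (250 before to 50 after a start, GRCm38.p6) were found for 8 of the 9 genes, 13 windows in all. The letters searched were the half-site AGGTCA, the variant AGTTCA, the variant GGGTCA and the variant GGTTCA on both strands, alone or as repeats with spacers of 1, 2 or 5 bases, where a repeat also counts as its half-sites. Among the members only a Rarb window held a repeat, a DR5, which 0.0974% of all 32851 windows hold. The 250 bases before the Rarb start (chr14:16575477-16575726, minus strand, inside the gene) are shown because this gene is known for its response element, and those before a Stra8 start (chr6:34920698-34920947, plus strand, inside the gene's annotated span) because Stra8 is the response gene. Capitals mark the DR5 in Rarb, from base -53 to -37 before the start, and 2 single half-sites in Stra8, a letter match that 43.7% of all windows hold.
Rarb: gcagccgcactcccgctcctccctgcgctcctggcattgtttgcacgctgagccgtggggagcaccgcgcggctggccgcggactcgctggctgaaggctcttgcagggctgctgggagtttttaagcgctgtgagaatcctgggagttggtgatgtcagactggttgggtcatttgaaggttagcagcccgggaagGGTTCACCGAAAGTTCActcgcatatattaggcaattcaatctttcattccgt
Stra8: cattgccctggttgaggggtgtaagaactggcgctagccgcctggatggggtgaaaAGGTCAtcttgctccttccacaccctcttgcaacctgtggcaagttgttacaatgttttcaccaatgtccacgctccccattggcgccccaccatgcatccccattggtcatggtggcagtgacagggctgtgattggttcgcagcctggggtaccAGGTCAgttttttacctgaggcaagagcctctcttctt

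Germ cells were compared between neighbouring windows of time with edgeR's quasi-likelihood test, which compares summed counts with the spread between pools, with Benjamini-Hochberg adjustment over all genes tested and a threshold of 0.05. E13.5 and PND8 lie in no window of the main comparisons. PND8 was left out because an earlier report on these data found most of its cells in clusters without a name, and it entered as an alternative. In the clusters used here, 166 cells of PND8 replicate 1 and 180 of replicate 2 were classed as germ cells. From E10.5 to E11.5-E12.5, 1 of 9 members rose, against 2.29% of all genes called. Of the 9, 3 rose by E14.5-E16.5, where 36.6% of genes were called. By E17.5-E18.5, 4 rose and 3 fell against a background of 35.7%. Birth to PND2 brought 2 members up (9.37% of genes called), and PND3-PND5 brought 1 up and 2 down (29.3%).

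None of the 9 passed between PND3-PND5 and PND6-PND7, where edgeR called 0.269% of genes, 2460 genes had an unadjusted p under 0.05, and DESeq2 called 773 genes. One rose by PND10-PND14 (10.7%). From there to PND30-Adult 1 member rose and 8 fell, beside 65.1% of genes called. Round spermatid markers in the germ sums were 18.2 to 234 CPM at PND10-PND14, 941 to 2344 CPM in 5 of the 6 later pools and 256 CPM in Adult replicate 1. The part of this in the changes was not tested. Neighbouring comparisons share pools and so are not independent. The median change over all genes was 0.69 on the log2 scale at E14.5-E16.5, 0.37 at E17.5-E18.5, -0.42 at PND3-PND5 and 0.33 at PND30-Adult.

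**Figure D1:**
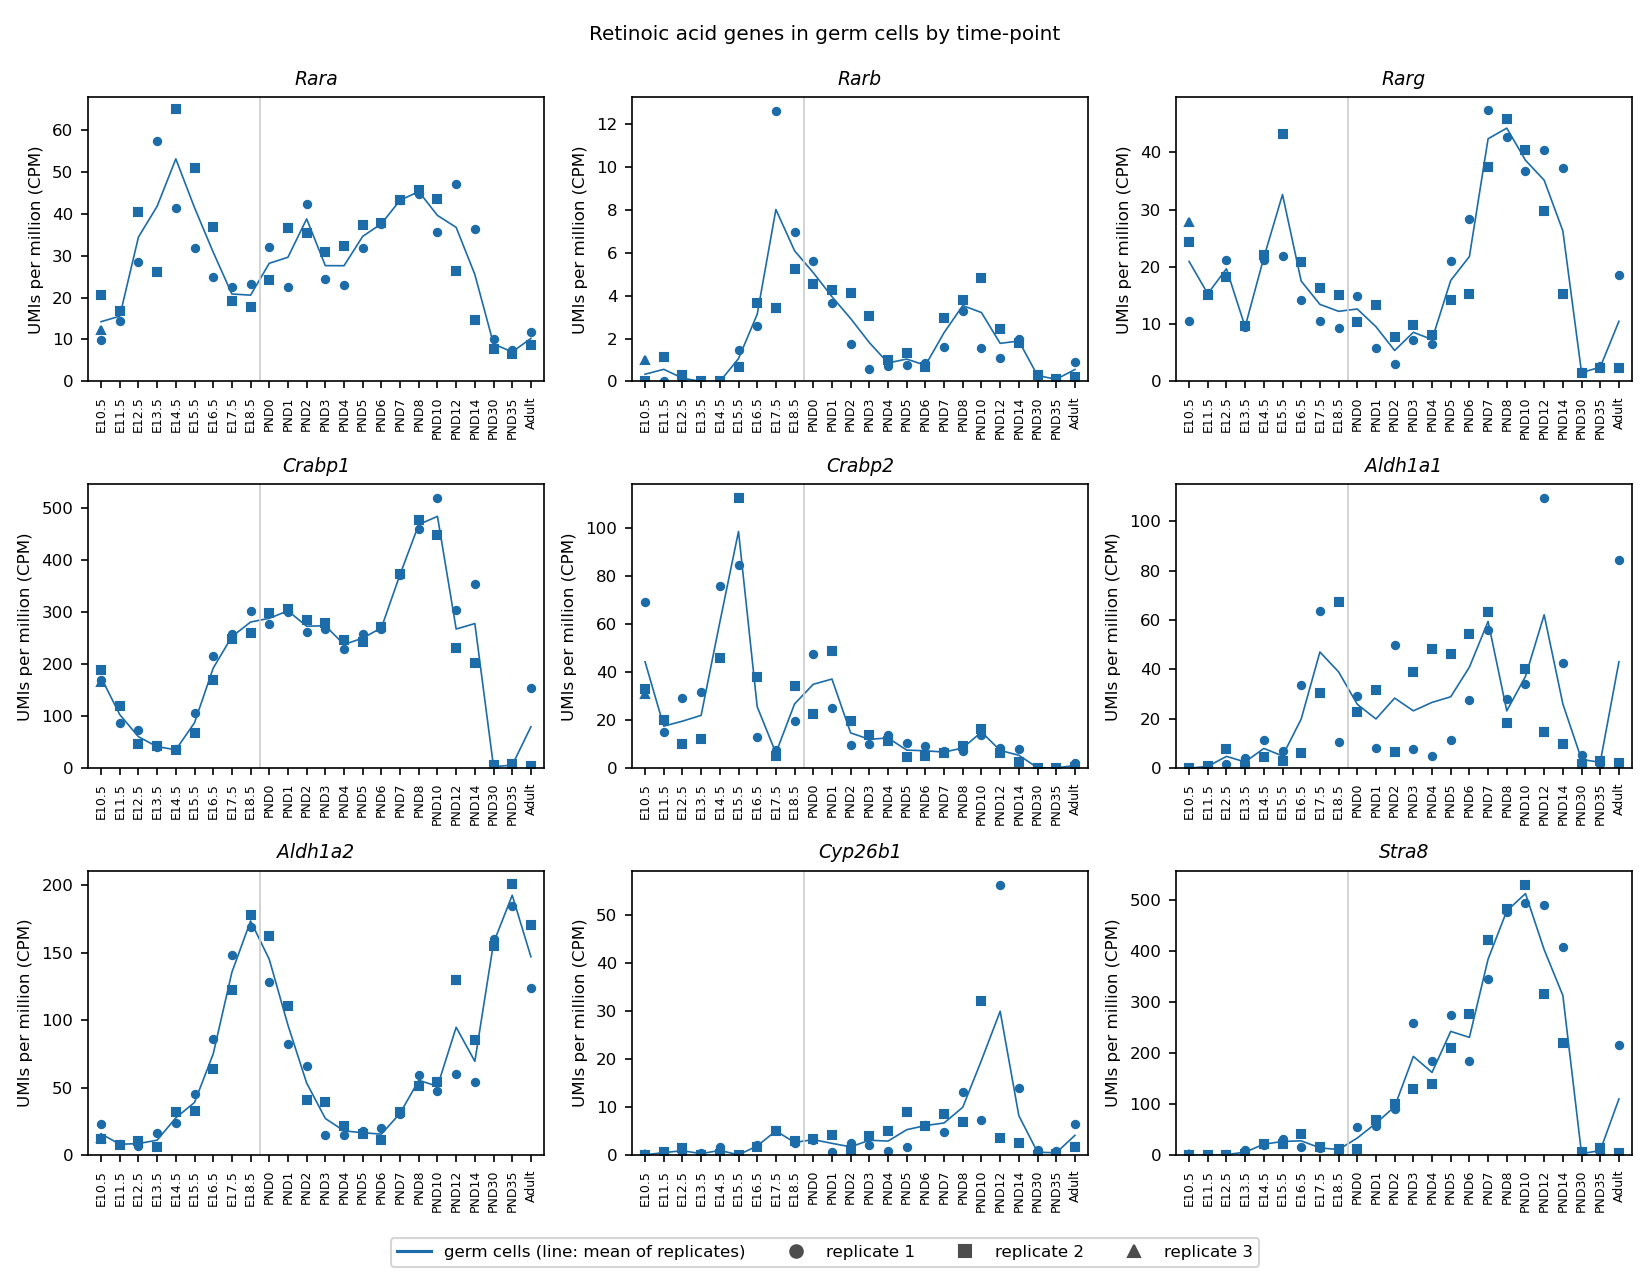
Level of each of the 9 genes in germ cells, in CPM (linear axis from 0), at 24 time-points; each point is a pool, its shape the replicate, and the line joins the means. Stra8 and Crabp1 are highest around PND8 to PND10, Crabp2 at E15.5, and Aldh1a2 has a peak at E18.5 and a second one from PND30.

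Rara, the receptor known for its role in both Sertoli cells and spermatogonia, was found in every germ pool. It stood at 9.82, 20.6 and 12.3 CPM in the E10.5 pools and at 41.2 and 64.8 CPM at E14.5. From E11.5-E12.5 to E14.5-E16.5 it differed by 0.61 ± 0.25 (edgeR adjusted p = 0.0547), which passed with DESeq2 (0.70, adjusted p = 0.00881) and RLE size factors (adjusted p = 0.0257). At E17.5-E18.5 the 4 pools held 22.5, 19.2, 23.3 and 17.8 CPM, all below the 6 pools of E14.5-E16.5 (24.8 to 64.8 CPM, median 39.02).
Rara fell by 1.38 ± 0.26 on the log2 scale (SE) over that step (edgeR adjusted p = 0.000206). It then read 22.6 to 42.2 CPM at PND0-PND2 (median 33.7), a rise of 0.81 ± 0.25 (edgeR adjusted p = 0.0381). That call was lost with RLE size factors (0.55, adjusted p = 0.167), DESeq2 (adjusted p = 0.104), no filter on low counts (adjusted p = 0.0776) or on cells (adjusted p = 0.064), the sorting gate (adjusted p = 0.109) and without the clusters led by another class (adjusted p = 0.266). It was also lost in 8 of 10 fits that left out a pool (all but those without PND0 replicate 2 or PND2 replicate 1, 0.65 to 0.84 on the log2 scale). From PND10-PND14 (14.6 to 47.1 CPM, median 36.1) to PND30-Adult (6.57 to 11.9 CPM, median 8.17) the groups did not overlap, and Rara fell by 1.48 ± 0.22 (edgeR adjusted p = 1.9e-06). Without the 4 germ clusters led by genes of another class the change was -0.89 (adjusted p = 0.00177).

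Rarg, another retinoic acid receptor and one known in differentiating spermatogonia, was at 9.44 to 43.3 CPM in the pools of E13.5 to E16.5. The 4 pools of E17.5-E18.5 held 10.52, 16.4, 9.31 and 15.2 CPM, which overlaps the 14.2 to 43.3 CPM of E14.5-E16.5. Rarg fell there by 1.26 ± 0.40 (edgeR adjusted p = 0.0158), a call lost without E17.5 replicate 1 (-1.16, adjusted p = 0.0526) or E18.5 replicate 1 (-1.13, adjusted p = 0.0583).
After birth it read 3.07 and 7.75 CPM at PND2 and stood at 28.4 and 15.2 CPM at PND6, 47.3 and 37.4 CPM at PND7 and 42.6 and 45.8 CPM at PND8. The PND6-PND7 change from PND3-PND5 was 1.48 ± 0.38 on the log2 scale and did not pass in the main test (edgeR adjusted p = 0.0847), though it did with DESeq2 (adjusted p = 0.00185), RLE size factors (adjusted p = 0.0471), no filter on cells (adjusted p = 0.0477) and PND8 included (1.76, adjusted p = 0.00676). By PND30-Adult Rarg had fallen by 2.81 ± 0.37 (edgeR adjusted p = 1.62e-07), with 5 of 6 pools at 1.51 to 2.68 CPM and Adult replicate 1 at 18.6 CPM.

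Rarb, a receptor whose own gene is a known retinoic acid target, was the lowest of the receptors in all germ pools but E17.5 replicate 1, where Rarg was lower. It was at 0 CPM in both E13.5 and both E14.5 germ pools, at 1.46 and 0.667 CPM at E15.5, and at 12.6, 3.41, 6.94 and 5.22 CPM at E17.5-E18.5. The rise over E14.5-E16.5 was 4.71 ± 1.17 on the log2 scale (edgeR adjusted p = 0.00311), where a fold against pools near 0 depends on the small count the test adds. Among later germ pools it did not exceed 5.6 CPM. Exons of Rarb overlap those of Top2b and Gm48162 on the other strand in GENCODE M21, and no source used here says whether strand was used in counting, so that its low counts are uncertain.

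Crabp1, a binding protein that holds retinoic acid in the cytoplasm, was among the most abundant members in germ cells. It read 170, 188 and 166 CPM at E10.5, 34.9 and 36.6 CPM at E14.5, and 215 and 170 CPM at E16.5. At E17.5-E18.5 the pools held 259, 248, 302 and 261 CPM, above all 6 pools of E14.5-E16.5.
The rise was 1.26 ± 0.47 (edgeR adjusted p = 0.0347), which was lost in 8 of 10 fits that left out a pool, all but those without E15.5 replicate 1 or E16.5 replicate 1 (1.17 to 1.28, adjusted p = 0.052 to 0.0725). Crabp1 then stayed between 230 and 306 CPM to PND5, reached 461 and 477 CPM at PND8 and 521 and 449 CPM at PND10. It stood at 0.415 and 5.99 CPM at PND30. From PND10-PND14 to PND30-Adult it fell by 4.40 ± 0.49 (edgeR adjusted p = 1.08e-08), with Adult replicate 1 at 155 CPM and the other 5 pools at or below 9.14 CPM.

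Crabp2, which delivers retinoic acid to the nucleus, had its highest germ levels at E15.5. It read 15.1, 20.1, 29.2 and 10.1 CPM at E11.5-E12.5. The E14.5 pools held 75.8 and 45.9 CPM, the E15.5 pools 84.6 and 112.8 CPM, and the E16.5 pools 13.2 and 38.1 CPM, so that the windows overlap through E16.5.
Crabp2 rose by 1.32 ± 0.44 (edgeR adjusted p = 0.0189), a call lost without E11.5 replicate 1 (1.16), E12.5 replicate 2 (0.97), E14.5 replicate 1 (1.12) or E16.5 replicate 2 (0.90). It fell by 2.44 ± 0.47 to E17.5-E18.5 (7.62, 5.16, 19.6 and 34.1 CPM, edgeR adjusted p = 0.000275), which passed whichever pool was left out. After birth Crabp2 read 47.6 CPM in PND0 replicate 1 and 49.1 CPM in PND1 replicate 2, both above E14.5 replicate 2. At PND3-PND5 it was lower than at PND0-PND2 by 1.00 ± 0.38 (edgeR adjusted p = 0.0478), a call lost with no filter on low counts (adjusted p = 0.0503) and in 8 of 12 fits without a pool (-1.04 to -0.71), held only without PND0 replicate 2, PND1 replicate 1, PND2 replicate 1 or PND5 replicate 1. No RefSeq promoter window was found for Crabp2.

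Aldh1a2, the main enzyme of retinoic acid synthesis in the embryo, moved in both directions in germ cells. It was at 8.40, 7.83, 6.71 and 10.48 CPM at E11.5-E12.5 and at 23.6 to 85.9 CPM at E14.5-E16.5 (median 39.1), without overlap. It rose by 2.16 ± 0.32 (edgeR adjusted p = 2.73e-06) and again by 1.43 ± 0.28 (edgeR adjusted p = 0.000398) to 148, 122.6, 169 and 178 CPM at E17.5-E18.5.
At PND3-PND5 the pools held 14.6 to 39.1 CPM (median 16.7), all below the 41.1 to 162 CPM of PND0-PND2. The fall was 1.82 ± 0.27 on the log2 scale (edgeR adjusted p = 1.62e-05). From PND6-PND7 (20.2, 11.1, 30.2 and 31.9 CPM) it rose by 1.93 ± 0.31 to 47.9 to 129.4 CPM at PND10-PND14 (edgeR adjusted p = 0.000174), and by a further 1.61 ± 0.26 to 123.5 to 201 CPM at PND30-Adult (edgeR adjusted p = 5.82e-06), when the other 8 members fell. These 5 calls held whichever pool was left out.
Among PND30 cells sorted by DNA content, Aldh1a2 was at 115.2 and 69.4 CPM in 1N and at 210 and 186 CPM in 4N cells, for replicates 1 and 2. The 2N pools lay between and differed by less than 1 CPM, with 136.4 CPM in replicate 1. The 4N cells lay above the 1N cells by 0.96 ± 0.29 (edgeR adjusted p = 0.0372), beside 27.5% of genes called, and no other member passed. Same-numbered 1N and 4N cells come from the same pool. With the replicate as a block 39.5% of genes were called, Aldh1a2 passed, and Crabp2 was lower in 4N cells by -5.20 on the log2 scale (adjusted p = 0.0488). Crabp2 also passed with RLE size factors and DESeq2, Rarb with DESeq2 (-4.53), and Stra8 (-2.18), Cyp26b1 (-4.38) and Crabp1 (-2.50) with no filter on low counts. Without the block and with 2 pools a side the share of genes called fell to 0.00911% without 1N replicate 2 and by over 1.5 times without 4N replicate 2 too. The Aldh1a2 call was lost without 4N replicate 1 (0.90), 1N replicate 2 (0.71) or 4N replicate 2 (1.01).

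Aldh1a1, a second retinal dehydrogenase and one known as abundant in Sertoli cells, was near 0 in early germ cells: 0.0715, 0 and 0.117 CPM at E10.5 and 0.768, 0.808, 1.74 and 7.93 CPM at E11.5-E12.5. The rise of 4.85 ± 1.33 (edgeR adjusted p = 0.0453) was lost whichever of the 7 pools was left out (4.18 to 5.60 on the log2 scale) and with the replicate block (5.67, adjusted p = 0.0926), and it was 5.44 with cells classed by the sorting gate (adjusted p = 0.0331).
Later germ pools held 1.00 to 110 CPM. The change to E17.5-E18.5 was 1.81 ± 0.75 and did not pass (edgeR adjusted p = 0.0587), though it did with DESeq2 (2.11, adjusted p = 0.0147), RLE size factors (adjusted p = 0.0327), the sorting gate (adjusted p = 0.05) and without the clusters led by another class (adjusted p = 0.0473). Between PND10-PND14 and PND30-Adult Aldh1a1 fell by 1.91 ± 0.70 (edgeR adjusted p = 0.0177), lost without PND12 replicate 1 (-1.22), PND14 replicate 1 (-1.56), PND30 replicate 2 (-1.76) or PND35 replicate 1 (-1.84), and without the clusters led by another class (-0.73, adjusted p = 0.382). Its highest germ pool, PND12 replicate 1 at 110 CPM, also had the highest summed Sertoli markers of any germ pool, 1679 CPM, with none of the 11 at 0, and Adult replicate 1 held 84.1 CPM beside 805 CPM of Sertoli markers. The replicates beside them, PND12 replicate 2 and Adult replicate 2, had 14.7 and 2.10 CPM of Aldh1a1 beside 436 and 63.4 CPM. The part of RNA from Sertoli cells in these germ values was not tested.

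Cyp26b1, the enzyme that breaks retinoic acid down, stayed at or below 5.15 CPM in all germ pools to PND4. It read 5.15, 4.97, 2.45 and 2.86 CPM at E17.5-E18.5, above the 0.0834 to 2.14 CPM of E14.5-E16.5, a rise of 2.31 ± 0.78 (edgeR adjusted p = 0.0222). That call was lost with cells classed by the sorting gate (2.02, adjusted p = 0.0557) and without E14.5 replicate 2 (2.04), E15.5 replicate 1 (2.27), E15.5 replicate 2 (2.30), E16.5 replicate 2 (2.24), E17.5 replicate 1 (2.26) or E18.5 replicate 2 (2.22). Summed Sertoli markers in the germ sums were 142.5 to 647 CPM at E14.5-E16.5 and 508 to 954 CPM at E17.5-E18.5. Germ Cyp26b1 was 12.7% and 13.2% of the Sertoli-like level in the E17.5 pools, beside 12.6% and 8.47% for the Sertoli markers. In the E15.5 pools it was 0.0888% and 0.129% beside 3.91% and 3.4%. It was 2.61% beside 2.3% in E14.5 replicate 1 and 7.29% beside 8.84% in E16.5 replicate 1. Over the 20 pools with both sums it was 0.0888% to 584% (median 29.2%), beside 1.8% to 19.5% (median 8.03%). The part of Sertoli RNA in the rise was not tested. The sole germ pools above 20 CPM were PND10 replicate 2 with 32.05 CPM and PND12 replicate 1 with 56.3 CPM. These 2 pools held 765 and 1679 CPM of Sertoli markers and 258 and 651 CPM of interstitial markers. The part of somatic RNA in these levels, and so in the later fall, was not tested.
From PND10-PND14 (2.48 to 56.3 CPM, median 10.7) to PND30-Adult (0.145 to 6.51 CPM, median 0.970) Cyp26b1 fell by 3.38 ± 0.73 (edgeR adjusted p = 0.000207). The change was -2.34 without PND12 replicate 1, -4.15 without PND30 replicate 1 and -1.84 without the clusters led by another class, and passed in each. Over 24 pools with a value, nearly all of E11.5 to PND8, germ Cyp26b1 was 0.462% to 326% of the interstitial-like level (median 4.38%), beside 1.69% to 8.5% (median 3.12%) for the interstitial markers. It was above the interstitial-like level in E12.5 replicate 2 and in E18.5 replicate 2, where the latter was 0.

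Stra8, known as the retinoic acid response gene of spermatogonia and of meiotic entry, was at 0, 0 and 1.67 CPM at E10.5 and at 0, 0.0404, 1.64 and 0.977 CPM at E11.5-E12.5. It read 10.2 and 1.73 CPM at E13.5. The 6 pools of E14.5-E16.5 held 15.4 to 41.05 CPM (median 22.7), with no overlap with the E11.5-E12.5 pools.
That rise was 6.99 ± 1.13 on the log2 scale (edgeR adjusted p = 1.24e-05), and since the earlier pools are near 0 its size depends on the small count the test adds. The pools of E17.5-E18.5 read 13.7, 15.3, 9.48 and 12.8 CPM, all below those of E14.5-E16.5 though the difference did not pass (edgeR adjusted p = 0.118).
After birth Stra8 stood at 55.8 and 11.7 CPM at PND0, 56.5 and 68.8 CPM at PND1 and 90.03 and 100.4 CPM at PND2. The rise from E17.5-E18.5 was 2.40 ± 0.73 (edgeR adjusted p = 0.0345). It was lost with RLE size factors (2.13, adjusted p = 0.0543), without the clusters led by another class (1.81, adjusted p = 0.266) and in 7 of 10 fits without a pool, namely each pool of E17.5-E18.5 (2.22 to 2.46), PND0 replicate 1 (1.83), PND1 replicate 1 (2.35) or PND2 replicate 2 (2.27).
At PND3-PND5 the pools held 129.1 to 274 CPM (median 198), above all of PND0-PND2 (11.7 to 100.4 CPM, median 62.7). This rise of 2.13 ± 0.62 (edgeR adjusted p = 0.0102) passed under every alternative run (1.90 to 2.702 without 1 pool, and 2.76 without the clusters led by another class). Stra8 reached 346 and 422 CPM at PND7, 476 and 482 CPM at PND8 and 495 and 530.5 CPM at PND10. Its PND14 pools read 407 and 219 CPM.
From PND10-PND14 to PND30-Adult Stra8 fell by 4.34 ± 0.68 (edgeR adjusted p = 2.83e-06). Of the later pools, 5 held 0.714 to 13.4 CPM and Adult replicate 1 held 216 CPM.

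Within single pools, clusters of germ cells differed in Stra8 as well. At PND7 replicate 2 the 41 cells of the cluster led by Gm11032 and Stra8 held 722 CPM, against 325 CPM in 90 cells and 307 CPM in 29 cells of the other clusters with at least 10 cells, and Kit, the receptor of differentiating spermatogonia, was at 136.2 CPM against 58.3 and 24.6 CPM. At PND7 replicate 1 the same cluster held 367 CPM of Stra8 in 64 cells against 337 and 279 CPM. At PND14 replicate 2 Stra8 was 463 CPM in the cluster led by Prdm9, a meiotic gene, and 38.8 CPM in the one whose leading genes include Meiob, known from meiotic recombination. The members and the listed genes around them, Stra8 and Kit among them, were left out when clusters were built. Clusters still come from the same cells and Stra8 is a leading gene of the first, so these values are descriptions.

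The share of germ cells with a Stra8 UMI, each cell thinned to 50000 UMIs, was 0% to 6.59% at E10.5-E12.5 and 18.7% to 50.6% at E14.5-E16.5. It was 83.7% to 96.4% at PND3-PND5 and 99.4% to 100% at PND8 and PND10. Somatic cells of the same pools, which are not known to express Stra8, gave 0% to 45.7% at E14.5-E16.5, 27.8% to 83.3% at PND3-PND5, 86.7% and 87.5% at PND7 and 100% of 13 cells at PND8. At E14.5 replicate 1 and E15.5 replicate 1 the somatic share (45.7% and 31.7%) was above the germ share (18.7% and 25.5%), so these shares do not set germ cells apart. The Stra8 level was higher in germ cells in both (20.4 against 12.3 CPM and 31.5 against 5.48 CPM). How much of any share is background was not tested. Median UMIs before thinning were 303132 in germ and 140864 in somatic cells.

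**Figure D2:**
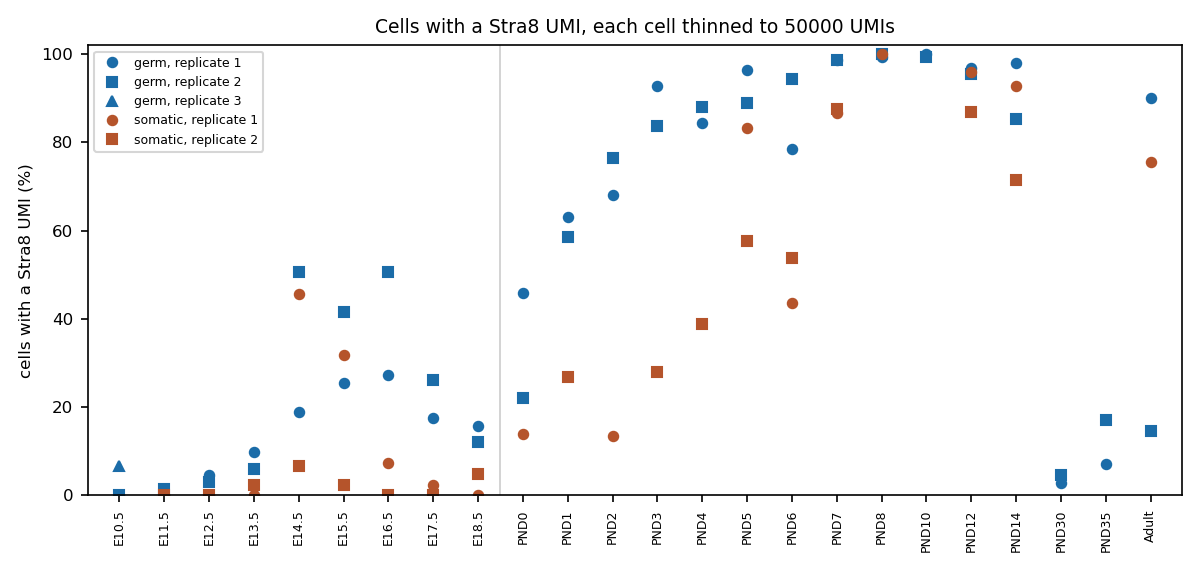
Percent of cells with at least 1 Stra8 UMI after thinning each cell to 50000 UMIs, by time-point; blue points are germ pools, brown points somatic pools, and shapes are replicates. Germ shares pass 83.7% from PND3 on to PND5, and somatic shares rise over the same days.

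Other genes of the pathway moved beside the members. Of 19 retinoid genes listed, 7 rose and 1 fell in germ cells at E17.5-E18.5, a window in which 35.7% of all genes were called. The median change of the 19 was 1.04 on the log2 scale, against 0.37 over all genes. Among those that rose were Rbp4, which carries retinol, the alcohol dehydrogenases Adh1 and Adh7, the retinoic acid hydroxylase Cyp26a1, the lipid binding protein Fabp5 and the receptor Rxrg. Rxrg, for example, rose by 3.53 ± 0.85 to 36.7 to 58.1 CPM (edgeR adjusted p = 0.00224), and Rxrb fell by 1.601 ± 0.28 (edgeR adjusted p = 0.000116).
Between PND10-PND14 and PND30-Adult 4 of the 19 rose and 9 fell, with 65.1% of all genes called. Rdh11, a retinal reductase, rose by 2.90 ± 0.35 (edgeR adjusted p = 5.59e-08), and Adh5 fell by 4.23 ± 0.38 (edgeR adjusted p = 4.85e-10). Aldh1a3, the third ALDH1A enzyme, rose by 2.04 ± 0.36 to 135.2 to 295 CPM at PND3-PND5 (edgeR adjusted p = 0.000179), the step at which Aldh1a2 fell, and fell by 2.61 ± 0.37 at PND30-Adult (edgeR adjusted p = 7.48e-07).

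Of 8 genes known to act with or near Stra8, 4 rose and 2 fell at E14.5-E16.5, beside 36.6% of all genes called. Gm4969, which encodes the STRA8 partner MEIOSIN, rose by 5.22 ± 1.02 but to no more than 8.66 CPM (edgeR adjusted p = 0.000159). Rec8, a meiotic cohesin and known retinoic acid target, rose by 1.84 ± 0.37 (edgeR adjusted p = 0.000193). Kit fell by 2.43 ± 0.34 (edgeR adjusted p = 1.11e-06). Nanos2, a factor of male germ cell fate, was at 0 in all pools of E11.5-E12.5 and at 3.85 to 96.5 CPM at E14.5-E16.5.
At PND3-PND5, where Stra8 rose, Nanos2 rose too by 2.40 ± 0.76 (edgeR adjusted p = 0.0187) and Sohlh2 by 0.84 ± 0.33 (edgeR adjusted p = 0.0499), while the other 6 did not pass, with 29.3% of all genes called. By PND30-Adult 6 of the 8 had fallen, beside 65.1% of all genes called, and Dmrtb1 had risen by 2.69 ± 0.53 (edgeR adjusted p = 6.55e-05).

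Over the 49 germ pools, the genes whose log2(CPM + 1) followed Stra8 most closely were Arf2 (Pearson r = 0.950), Dnmt3b (0.942), Socs1 (0.938), Oasl2 and Prps1 (0.929 each), among 14410 genes. For Crabp1 they were Aifm3 (0.957), Igfbp2, Scap, 1110008P14Rik and Zyx. Aldh1a2 was followed by Lpcat3 (0.946), Ak8, Col16a1, Gnao1 and Lrrc27, and Crabp2 by Igbp1 (0.893), Lrrc8d, Klf3, Ooep and Pkp2. Rara was followed by Gnb4 (0.884), Kctd20, Cpped1, Pdxk and Dennd2c, and Rarg by Mfsd5 (0.854), Pou2f1, Gss, Zeb1 and Cnpy4.
In contrast, Aldh1a1 in germ pools was followed by Prss35 (0.944), Mmd2, Inha, Akr1cl and Nr5a1, of which Inha and Nr5a1 are known somatic genes of the gonad. Cyp26b1 was followed by Etd (0.886), Clec12b, Mmd2, Wfdc10 and Prss35. These are correlations over pools of 24 time-points and share their libraries.

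In the gonad between E11.5 and E18.5, somatic and germ sums of 16 pools were compared with the pool as a block. Of 8 members tested, 3 were higher and 3 lower in somatic cells, beside 62.8% of all genes called, and Rarb had too few counts to be tested. The higher ones were Cyp26b1 and Aldh1a1, in 16 of 16 pools, and Rara, in 15 of 16.
Cyp26b1 held 4.11 to 113.4 CPM (median 38.5) in somatic against 0.0834 to 5.15 CPM (median 1.09) in germ sums, a difference of 5.32 ± 0.60 (edgeR adjusted p = 2.76e-07). Aldh1a1 held 38.3 to 725 CPM (median 292) against 0.768 to 67.3 CPM (median 6.51), a difference of 5.19 ± 0.35 (edgeR adjusted p = 2.74e-10), and of 4.48 with no pool block and 4.41 by the sorting gate. Rara held 22.4 to 98.4 CPM (median 67.6) against 14.3 to 64.8 CPM (median 27.3), a difference of 1.05 ± 0.23 (edgeR adjusted p = 0.000579).
Rarg and Crabp1 were lower in somatic cells in 16 of 16 pools, and Stra8 in 15, with both sums at 0 in E11.5 replicate 1. Crabp1 held 3.11 to 49.2 CPM in somatic against 34.9 to 302 CPM in germ sums, -2.49 ± 0.33 on the log2 scale (edgeR adjusted p = 1.71e-06). Rarg held 0.946 to 9.21 CPM against 9.31 to 43.3 CPM without overlap, -1.998 ± 0.32 (edgeR adjusted p = 2.01e-05). Stra8 held 0 to 12.3 CPM (median 0.369) against 0 to 41.05 CPM (median 13.2), -4.00 ± 0.66 (edgeR adjusted p = 3.2e-05), and -3.03 with no pool block (adjusted p = 0.00202). Crabp2 (-0.23, 95% interval -1.27 to 0.81) and Aldh1a2 (1.18, 0.00 to 2.36) did not pass, though Aldh1a2 did with DESeq2 (adjusted p = 0.0133).
Of the 19 other retinoid genes 17 were tested, and 9 were higher and 4 lower in somatic cells. The vitamin A receptor Stra6 was higher by 5.37 ± 0.52 (edgeR adjusted p = 3.59e-08), and Dhrs3, which turns retinal back to retinol, by 5.52 ± 0.53 (edgeR adjusted p = 2.94e-08). Lrat, which stores retinol as ester, was lower by -3.74 ± 0.73 (edgeR adjusted p = 0.000162).

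Transcripts of one compartment also appeared in the other, and the 9 genes differed in how far. The germ level of Aldh1a1 was 0.198% to 23.9% of the Sertoli-like level of the same pool (median 4.98%), beside a median of 8.03% for the Sertoli markers as a whole. For Rara it was 14.9% to 92.7% (median 27.3%), and for Aldh1a2 a median of 51.2%. In the other direction the Sertoli-like level of Crabp1 was 3.62% to 52.7% of the germ level and that of Stra8 0% to 60.8% (median 11.2%), beside a median of 15.4% for the germ markers. In interstitial-like cells these were 14.3% for Crabp1 and 7.38% for Stra8, beside 10.8%. The part of carried-over RNA in these levels was not tested further.

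**Figure D3:**
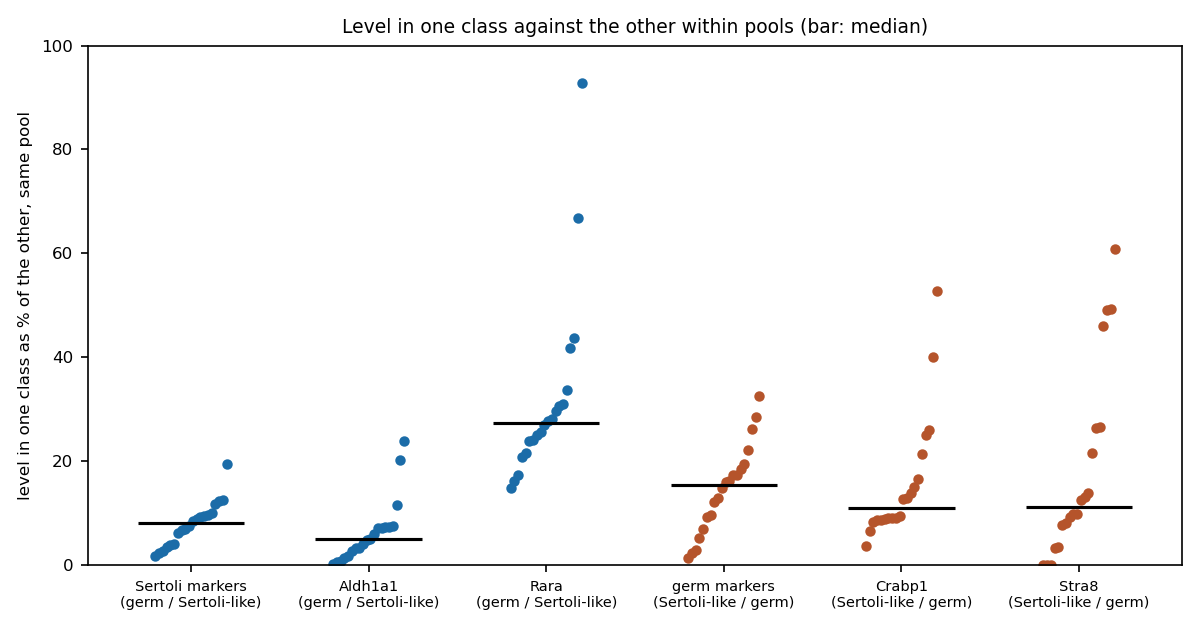
Level in 1 class as a percent of the level in the other class of the same pool (20 pools; each point a pool, bar the median). Blue points give germ over Sertoli-like cells, brown points Sertoli-like over germ cells. By the medians alone, Aldh1a1 (4.98%) lies near the Sertoli markers (8.03%), Rara (27.3%) above them, and Crabp1 and Stra8 (11.2%) near the germ markers (15.4%). Single pools can differ from this.

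Among somatic cells, Sertoli-like and interstitial-like sums were compared over 14 pools that hold both, from E13.5 to PND14, with the pool as a block. Of 8 members tested 3 were higher in Sertoli-like cells and 2 lower, beside 37.6% of genes called. Aldh1a1 held 506 to 918 CPM (median 809) against 20.2 to 419 CPM (median 137.6), without overlap and higher in 14 of 14 pools. The difference was 2.34 ± 0.27 (edgeR adjusted p = 4.31e-07).
Rara held 62.4 to 177 CPM (median 114.5) against 1.19 to 73.4 CPM (median 44.9), again in 14 of 14 pools, a difference of 1.502 ± 0.30 (edgeR adjusted p = 0.000434). Aldh1a2 was higher by 1.35 ± 0.38, in 11 of 14 pools (edgeR adjusted p = 0.00778), which was lost with at least 20 cells per sum (1.11, adjusted p = 0.136) or with no pool block (0.69, adjusted p = 0.282).
Rarg was lower by -2.61 ± 0.60 (edgeR adjusted p = 0.00137) and Crabp2 by -2.59 ± 0.74 (edgeR adjusted p = 0.00837). With at least 20 cells per sum both were past the threshold no longer (-3.36, adjusted p = 0.0581, and -3.14, adjusted p = 0.145). Cyp26b1 did not pass over all 14 pools (-0.41, 95% interval -2.03 to 1.21, and -1.66 with no pool block, adjusted p = 0.0306), being higher in Sertoli-like cells in 7 and in interstitial-like cells in 7.

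Cyp26b1 changed with birth in opposite directions in the 2 classes. In Sertoli-like sums it read 29.4 to 134.6 CPM (median 63.9) in 7 pools of E13.5-E17.5 and 8.64 to 27.7 CPM (median 16.96) in 8 pools of PND1-PND7, without overlap. In interstitial-like sums it read 0 to 31.1 CPM (median 11.51) in 11 pools of E13.5-E18.5 and 30.5 to 444 CPM (median 83.1) in 9 pools of PND0-PND8. Of the postnatal sums, only PND3 replicate 2, at 30.5 CPM, lay within that fetal range, and the later PND14 sum reached 627 CPM. The fetal range holds no sum of E16.5 replicate 2, whose interstitial markers were above its Leydig markers. Nearly all its somatic cells fell in a cluster led by Leydig genes, which held 112.2 CPM of Cyp26b1 over all pools. That is above the fetal range and above the postnatal median of 83.1 CPM. How this pool would change the rise was not tested.
Cyp26b1 fell by 1.962 ± 0.56 in Sertoli-like cells (edgeR adjusted p = 0.029) and rose by 3.66 ± 0.51 in interstitial-like cells (edgeR adjusted p = 9.97e-06). This fit took class and window as groups and held no pool block in any setting. Sums of both classes from the same pool, which share their gonads, were thus treated as independent. The difference of the changes itself was -5.63 ± 0.76 on the log2 scale (Sertoli-like minus interstitial-like, edgeR adjusted p = 1.2e-05), beside 2.08% of genes called, and it passed under every alternative run. With at least 20 cells per sum it was -3.60 (adjusted p = 0.0135), and the rise in interstitial-like cells was 2.31 (adjusted p = 0.00589).
The fall in Sertoli-like cells was lost with at least 20 cells per sum (-1.29, adjusted p = 0.384) and without E13.5 replicate 2 (-1.74), E15.5 replicate 1 (-1.82), PND4 replicate 2 (-1.87), PND5 replicate 2 (-1.90), PND7 replicate 1 (-1.93) or PND7 replicate 2 (-1.93). Fetal somatic cells came from a sort and postnatal ones from picking, so that birth and the way of collection cannot be told apart.

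In the same fits 2 of 8 members passed in Sertoli-like cells, against 4.6% of genes, and 4 of 8 in interstitial-like cells, against 7.62%. Aldh1a2 fell in interstitial-like cells by 3.07 ± 0.46 (edgeR adjusted p = 2.55e-05), from 6.50 to 154 CPM (median 56.1) to 1.53 to 13.45 CPM (median 7.38). Its fetal pools at E17.5-E18.5 already read 17.8, 19.02, 6.50 and 11.3 CPM, and those overlap the postnatal ones. The difference between the classes was 2.21 ± 0.63 (edgeR adjusted p = 0.0518), which passed with DESeq2 (adjusted p = 0.0176), no filter on low counts (adjusted p = 0.0452) and the replicate block (adjusted p = 0.0467).
Aldh1a1 rose by 1.29 ± 0.34 in interstitial-like cells (edgeR adjusted p = 0.0135), from 20.2 to 151 CPM to 27.4 to 361 CPM, a call lost with at least 20 cells per sum (0.61, adjusted p = 0.368).
Stra8 passed in both classes. It rose by 3.36 ± 1.00 in Sertoli-like cells (edgeR adjusted p = 0.0393) and by 3.26 ± 0.83 in interstitial-like cells (edgeR adjusted p = 0.0106), while it rose in germ cells of the same pools. With at least 20 cells per sum neither passed (1.92, adjusted p = 0.614, and 1.78, adjusted p = 0.251), and with the replicate block the Sertoli-like change was 4.48 (adjusted p = 0.00794). In Sertoli-like cells the call was also lost in 9 of 15 fits without a pool (2.74 without PND7 replicate 2, and 3.12 to 3.48 without E13.5 replicate 2, either E15.5 pool, E16.5 replicate 1, either E17.5 pool, PND6 replicate 2 or PND7 replicate 1), and in interstitial-like cells without PND8 replicate 1 (2.50, adjusted p = 0.0566). The genes most like Stra8 over 47 somatic sums were 1700013H16Rik (r = 0.899), Tex11, Syce1, 1700018B24Rik and Sycp1, of which Tex11, Syce1 and Sycp1 are known meiotic germ cell genes.

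**Figure D4:**
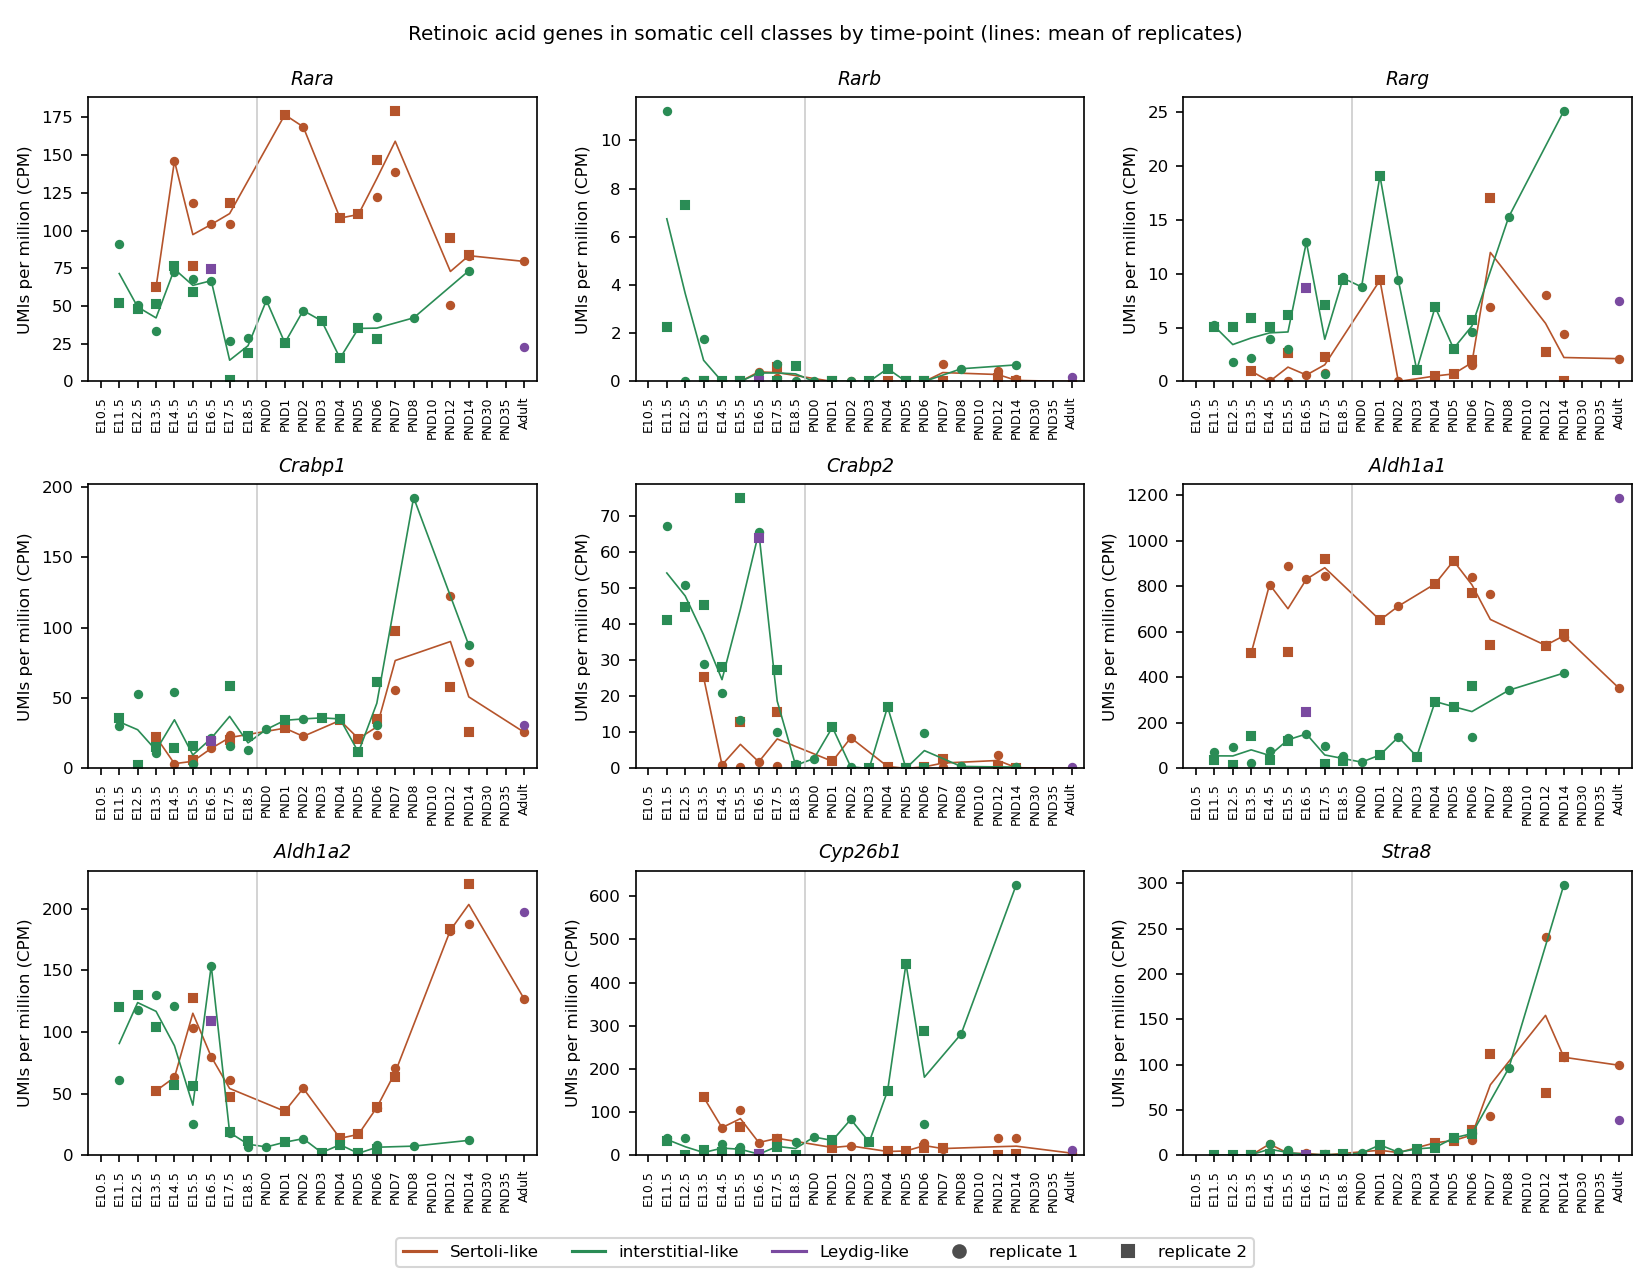
Level of each of the 9 genes in Sertoli-like, interstitial-like and Leydig-like cells, in CPM (linear axes from 0), by time-point; points are sums of at least 10 cells, shapes are replicates, lines join the means over gaps without a sum. The Leydig-like point at E16.5 is the sum whose markers go against that name. Cyp26b1 is highest in Sertoli-like cells at E13.5 (134.6 CPM) and in interstitial-like cells at PND14 (627 CPM), and Aldh1a1 separates the 2 classes at all ages.

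Over the somatic sums Aldh1a1 was followed most closely by Efhd1 (r = 0.925), Defb19, Me1, Gstm2 and Gm48795, of which Defb19 is a listed Sertoli marker. Cyp26b1 was followed by Cp (0.700), Pdpn, Cx3cl1, Stc2 and Nenf, and Crabp2 by Unc5c (0.825), Cpa1, Cdh6, Myl7 and Nr2f1. Rara was followed by Papola (0.801), Cttn, Hspb1, Tspyl2 and Gm16286, Rarg by Twist1 (0.677), Elavl2, Esr1, Reps2 and Tcf4, Crabp1 by Tex13b (0.701), Uchl1, Smagp, Fthl17c and Gm12031, and Aldh1a2 by Cyp2s1 (0.773), Cdh2, Itgb5, Wt1 and St8sia1. The Leydig-like sum of Adult replicate 1, with 6918 CPM of Leydig and 579 CPM of interstitial markers, held 1189 CPM of Aldh1a1, 197 CPM of Aldh1a2 and 12.9 CPM of Cyp26b1.

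Along the gonad at E13.5 to E16.5, no member passed between D and P in germ cells, where edgeR called 0 of 16055 genes (0.0%), 611 had an unadjusted p under 0.05 and DESeq2 called 4. Stra8 had the lowest unadjusted p of the members (0.000576). It read 4.48, 0.564, 4.92, 19.2, 9.76, 22.8, 13.54 and 30.8 CPM in D and 27.9, 3.51, 49.98, 32.3, 58.97, 23.9, 11.4 and 37.1 CPM in P, from E13.5 replicate 1 to E16.5 replicate 2.
It was lower in D in 7 of 8 pools, all but E16.5 replicate 1. The difference was -1.57 ± 0.40 on the log2 scale (edgeR adjusted p = 0.998), and with no filter on low counts it passed (-1.58, adjusted p = 0.000988). In E13.5 replicate 1 the reporter-sorted cells of P came from another library than those of D and C. Position and library cannot be told apart in that pool. The 7 other members tested differed by -0.93 to 0.22, and Cyp26b1 was too low to test.

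In somatic cells 2 of 11987 genes (0.0167%) were called between D and P and none of the 7 members tested was among them. Crabp2 held 33.6, 65.8, 30.1, 19.7, 24.2, 45.3, 50.7 and 132.6 CPM in D and 26.7, 9.22, 1.31, 42.2, 0.439, 20.8, 2.48 and 18.2 CPM in P, higher in D in 7 of 8 pools. The difference of 2.61 ± 0.71 (edgeR adjusted p = 0.233) passed with no filter on low counts (2.65, adjusted p = 0.000164) and with DESeq2 (2.74, adjusted p = 0.00232). Aldh1a1 was lower in D in 6 of 8 pools (-0.85 ± 0.40, edgeR adjusted p = 0.481), which passed with no filter on low counts (-0.82, adjusted p = 9.31e-06).
The make-up of the parts varied beside these levels. At E14.5 replicate 1, 12 of 18 cells of P were Sertoli-like and 2 of 16 of D, at E15.5 replicate 1 9 of 13 and 3 of 16. At E16.5 replicate 2 the classes do not give the make-up, and the summed Sertoli markers were 2420 CPM in D, 2814 CPM in C and 1168 CPM in P, the interstitial markers 2914, 3777 and 4953 CPM. The part of this make-up in the somatic values was not tested.

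**Figure D5:**
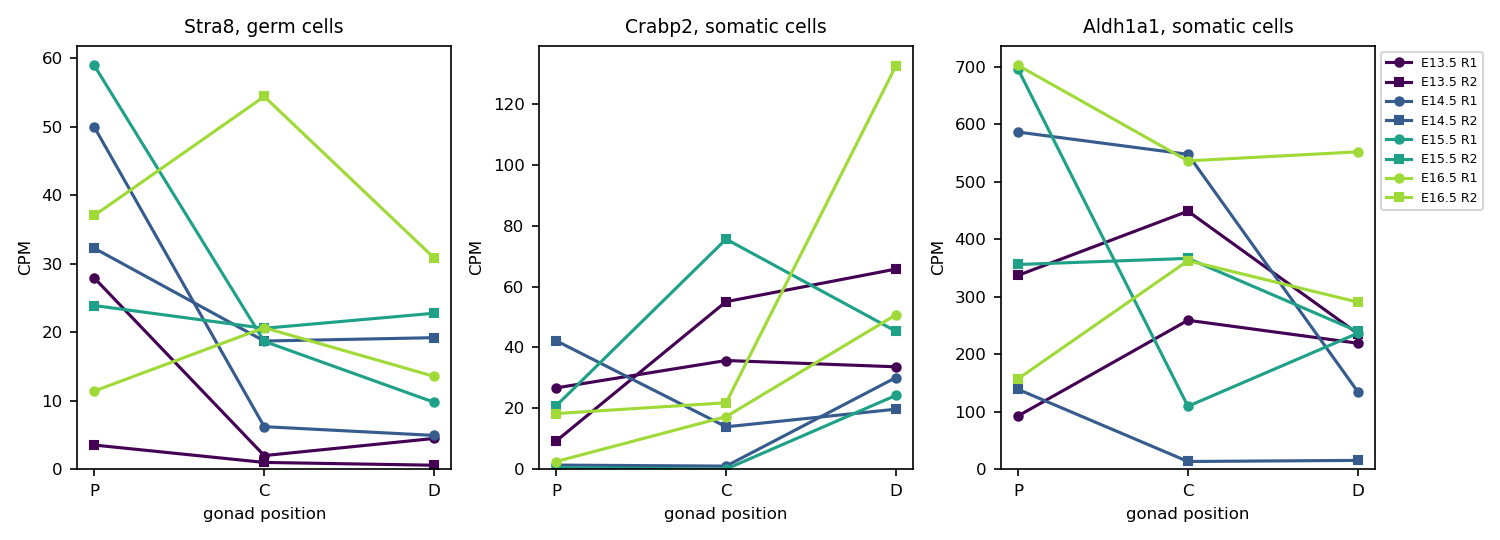
Level in CPM (linear axes from 0) of Stra8 in germ cells and of Crabp2 and Aldh1a1 in somatic cells at gonad positions P, C and D; each line is 1 of 8 pools from E13.5 to E16.5. Germ Stra8 is lower in D than in P in 7 of 8 pools, and somatic Crabp2 higher in D in 7 of 8. In E13.5 replicate 1 the reporter-sorted cells of P are of another library than those of D and C.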

How the data were processed

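RNA of single cells was captured by a modified STRT-seq, a 3' method with UMIs. Per the study's methods, the authors extracted UMIs with UMI-tools, trimmed with seqtk, aligned with STAR to mm10 and counted with featureCounts, and the submitters' notes name CASAVA 1.8. Strand use in counting is not given in the sources used here. The deposited counts are whole-number UMI counts per gene and cell, not normalized. Groups, replicates, sorts and gonad positions come from the deposited table of cells and the cell names, since GEO's labels name libraries only. Of 13032 cells, 3192 were not used.

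Cells with more than 2000 genes and 10000 to 1000000 UMIs were kept (9591). The used cells came from 110 libraries with 96 barcode sequences, and 0 cells shared both library and barcode. They were clustered with scanpy 1.11.5 and igraph 0.11.9 (1000 variable genes, 30 components, 20 neighbours, Leiden resolution 1.0) into 35 clusters. The members and the listed genes around them were left out of the clustering. Clusters were named from marker lists, and no doublet caller was run. The naming rule was revised once after clusters were seen, and 4 germ clusters led by genes of another class were left out in an alternative also chosen then. Counts were summed per pool and class over at least 10 cells and tested with edgeR 4.0.16 (filterByExpr, TMM, trended dispersion chosen for run time, quasi-likelihood F-test, Benjamini-Hochberg over all genes, threshold 0.05) in R 4.3.3. SEs come from the F statistic. CPM is the share of a gene in the summed UMIs times 1000000. DESeq2 1.42.0, RLE size factors, no filter on low counts or on cells, at least 20 cells, the sorting gate, the replicate as block and leaving out each pool were alternatives. Correlations used log2(CPM + 1) and genes reaching 20 CPM. The test steps were run on simulated data. Genes named are the 9 members, those of 19 further retinoid genes past the threshold with at least a 2-fold change, 8 genes that act with or near Stra8, and the 5 genes most like each member. Same-numbered 1N and 4N sums are sorts of the same pool and so paired; their blocked values are given beside the unblocked ones. One gene past the threshold is not reported here. Members and lists were chosen with earlier results of these data known. Counting error sets a floor on low values, and PCR duplicates are removed by UMI.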

Additional observations from a re-analysis of the deposited data

Results flagged for a closer look

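In 28 groups of 4 to 10 sums, 20.7% of those tested, the highest value stood apart from the rest by Dixon's test. Chance gives about 1 in 20 such groups, and the groups share pools and genes. The test was run on the members only, so the share of all genes that stands apart in a pool is not known.

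Adult replicate 1 stood apart among the 6 germ pools of PND30-Adult for 7 members: Stra8 at 216 CPM, Crabp1 at 155 CPM, Aldh1a1 at 84.1 CPM, Rarg at 18.6 CPM, Cyp26b1 at 6.51 CPM, Crabp2 at 2.07 CPM and Rarb at 0.904 CPM. Its summed Sertoli markers were 805 CPM and Leydig markers 498 CPM, against 63.4 and 7.20 CPM in Adult replicate 2. Its round spermatid markers were 256 CPM against 1413 CPM and its spermatocyte markers 2995 CPM against 1645 CPM, and 2 clusters of 228 and 90 cells, nearly all from Adult pools, held 211.7 and 220.5 CPM of Stra8. The part of these in the levels was not tested, nor was how many of all genes stand apart in this pool.

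Among other germ pools, Aldh1a1 stood apart at E12.5 replicate 2 (7.93 CPM), E16.5 replicate 1 (33.8 CPM), PND12 replicate 1 (110 CPM) and in position D of E16.5 replicate 1 (37.3 CPM). Rarg did so at E15.5 replicate 2 (43.3 CPM), Aldh1a2 at PND3 replicate 2 (39.1 CPM), and Rarb at PND3 replicate 2 (3.04 CPM) and PND10 replicate 2 (4.84 CPM).

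Among Sertoli-like sums, Stra8 stood apart at PND7 replicate 2 (111.7 CPM) and E14.5 replicate 1 (12.4 CPM), Crabp1 at PND7 replicate 2 (97.3 CPM), Crabp2 at PND2 replicate 1 (8.48 CPM) and Rarb at PND7 replicate 1 (0.74 CPM). In interstitial-like cells PND8 replicate 1 stood apart for Stra8 (95.96 CPM) and Crabp1 (192 CPM), and the germ markers in that sum were 29.9% of their germ level. In somatic cells of position D, Stra8 (13.6 CPM) and Crabp1 (78.8 CPM) stood apart at E14.5 replicate 1, Rarg (20.2 CPM) and Crabp2 (132.6 CPM) at E16.5 replicate 2 and Rarb (0.332 CPM) at E16.5 replicate 1, where Rarb in position P (0.621 CPM) did too.

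The change of Cyp26b1 after birth differed between Sertoli-like and interstitial-like cells by -5.63 on the log2 scale in the test of the difference itself. That test held no pool block and no sum of E16.5 replicate 2.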

How the results depend on the processing

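Over all members and comparisons, settings other than leaving out a pool kept direction and side of the threshold in 940 cases, gained a call in 37, lost one in 20 and turned the direction in 16. The cause was not tested. Depth limits Rarb and germ Cyp26b1, which lie near 0 in many sums, and the somatic sums of 10 to 20 cells. At least 20 cells per sum left too few sums for D against P in somatic cells, which could not be fitted.

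No turned direction passed the threshold in either fit. With the replicate block these were E11.5-E12.5 Stra8 (6.11) and Rarb (6.75). With the sorting gate they were E11.5-E12.5 Rarb (0.0279), somatic D against P Cyp26b1 (0.0751) and germ D against P Rara (0.0088) and Aldh1a1 (0.0047). Without the clusters led by another class they were PND0-PND2 Cyp26b1 (0.0437), PND10-PND14 Rarg (-0.19) and Crabp1 (-0.076), and germ D against P Rara (0.0352) and Crabp1 (-0.11). PND3-PND5 Crabp1 was -0.0509 with RLE size factors and -0.0508 with DESeq2, with DESeq2 the Stra8 difference between the somatic classes was -0.0065, and with at least 20 cells Sertoli-like Crabp2 was 0.91 and Aldh1a1 -0.10.

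Counts of called genes moved by over 1.5 times in the following cases, given as the percent of tested genes called. With DESeq2 they were 9.05% (from 2.29%) at E11.5-E12.5, 3.59% (from 0.269%) at PND6-PND7, 3.34% (from 2.08%) for the difference between somatic classes, 1.55% (from 0.0167%) for somatic and 0.0249% (from 0%) for germ D against P. With no filter on low counts they were 7.21% of more genes (1789 from 1010) in interstitial-like cells, 1.46% for somatic and 0.0189% for germ D against P. With at least 20 cells they were 22.4% (from 37.6%) between somatic classes, 1.41% (from 4.6%) in Sertoli-like cells and 0.904% for the difference. Without the clusters led by another class they were 2.47% (from 9.37%) at PND0-PND2, 0.114% at PND6-PND7 and 0.0486% for germ D against P. PND6-PND8 gave 1.55%, and no pool block 0.0% for somatic D against P.

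Leaving out 1 pool gave 1.27% to 2.10% at E11.5-E12.5, 4.90% to 10.1% at PND0-PND2, 0% to 0.413% at PND6-PND7, 3.47% to 11.2% at PND10-PND14, 0.00911% to 26.3% for 4N against 1N, and for D against P 0% to 0.639% in somatic and 0% to 0.0244% in germ cells. The lowest came without E12.5 replicate 2, PND0 replicate 1, PND6 replicate 2 (for PND10-PND14) and 1N replicate 2. In the other comparisons no pool moved the count by over 1.5 times.

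Uncalled members turned direction without 1 pool over these ranges: at E11.5-E12.5 Stra8 -3.40 to 6.13 and Rarb -4.25 to 6.95, at E14.5-E16.5 Cyp26b1 -1.18 to 0.0003, Rarb -1.40 to 3.11, Rarg -0.0866 to 0.28 and Crabp1 -0.34 to 0.0195, at PND0-PND2 Aldh1a1 -1.23 to 0.21, and at PND3-PND5 Aldh1a1 -0.18 to 1.02. At PND6-PND7 they were Rarb -0.13 to 0.63 and Aldh1a2 -0.0971 to 0.34, at PND10-PND14 Rarg -0.0854 to 0.29 and Crabp1 -0.0424 to 0.18, and for 4N against 1N Cyp26b1 -9.21 to 4.78 and Aldh1a1 -2.56 to 1.28. In somatic fits they were Crabp2 -0.42 to 0.0022 against germ, Sertoli-like Aldh1a1 -0.0793 to 0.0915, and for the difference between classes Stra8 -0.74 to 1.44 and Crabp2 -0.57 to 1.10. For D against P they were somatic Cyp26b1 -1.04 to 0.0923 and germ Rara -0.10 to 0.0273, Rarb -1.63 to 0.0802 and Crabp1 -0.0857 to 0.11.

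Replicate numbers paired the 1N and 4N sums, which come from the same pool, but not pools of different time-points: over 276 pairs of time-points the differences between replicates correlated at -0.5 to 0.82 (median 0.01), with 43 over 0.1. With the replicate as a block 1.92%, 36.9%, 35.4%, 9.52%, 29.4%, 0.209%, 10.52% and 65.1% of genes were called for the germ comparisons in order of time, 39.5% for 4N against 1N, 4.58% in Sertoli-like and 7.48% in interstitial-like cells and 2.11% for their difference.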
